A study of Mus musculus with 6 samples.

Results

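Transcripts of 7 genes were followed in B16F10 cells, a mouse melanoma line, with and without depletion of OSGEP, the enzyme of the KEOPS complex, which makes the tRNA modification t6A. The genes were 5 tripartite-motif (TRIM) genes linked to interferon, Trim14, Trim21, Trim25, Trim30a and Trim56, and 2 genes of promyelocytic leukaemia (PML) nuclear bodies, Pml and Sp100. They were taken by name, and all 7 were among the 55487 genes of the count table. The filter on low counts kept 5 of the 7 for testing, among 12669 genes in all, and Trim14 and Trim25 were below it.

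The control cells (shCtr) carried a lentiviral scramble shRNA and the depleted cells (shOSGEP) carried a single hairpin against Osgep, so effects of that hairpin and of OSGEP loss cannot be told apart. Both groups were wild type by label and were selected with puromycin. PolyA RNA from 3 separate infections per group was sequenced, giving 6 libraries. The labels name no interferon or other immune stimulus for these 6 libraries.

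TRIM proteins are mostly RING-type ubiquitin ligases, and many of their genes are induced by interferon through the factor ISGF3, which binds the interferon-stimulated response element (ISRE). TRIM25 attaches ubiquitin chains to RIG-I, TRIM14 acts at the mitochondrial adaptor MAVS, TRIM21 is a cytosolic antibody receptor, TRIM56 is linked to STING and to double-stranded RNA sensing, and mouse TRIM30a restrains NF-κB signalling. PML is the scaffold of PML nuclear bodies, SP100 is a resident of those bodies, and both are modified by SUMO.

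The sequence most directly tied to that induction is the ISRE, so the promoters were searched for its core. RefSeq start-site windows of GRCm38.p6, from 250 bases before to 50 bases after the start, were at hand for 6 of the 7 genes. The ISRE core was taken as GAAA, any 2 bases and GAAA again, read on both strands, and occurred in 3.44% of 32851 windows. Among the 6 genes it occurred in Trim21 and Trim30a. Trim21 (chr7:102565447-102565476, minus strand) held a pair of overlapping matches just after its start, and both start-site windows of Trim30a (chr7:104465210-104465239 and chr7:104446104-104446133, minus strand) held the reverse complement. The same stretch of Trim30a stood, letter for letter, in its neighbour Trim30d (chr7:104507871-104507900, minus strand), and a further match stood in Trim12c (chr7:104353359-104353388, minus strand). The sequences below run 5′ to 3′ on the strand of the gene, and capitals mark the ISRE core matches.
Trim21: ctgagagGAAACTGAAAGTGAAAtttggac
Trim30a window 1: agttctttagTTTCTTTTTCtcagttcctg
Trim30a window 2: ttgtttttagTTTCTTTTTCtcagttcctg
Trim30d: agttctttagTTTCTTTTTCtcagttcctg
Trim12c: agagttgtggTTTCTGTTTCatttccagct

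The windows of Trim25, Trim56, Pml and Sp100 held no ISRE core. The core of the gamma-activated site, TTCNNNGAA, was found in 8.3% of all windows and in none of the 6 genes with a window. A match is a description of these letters only.

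Library depth ran from 18915587 to 29487384 counts, and a floor of 3 counts, which covers counting error only, equalled 0.116 to 0.147 CPM, the count relative to library size. All CPM values are scaled by the trimmed mean of M-values (TMM). Osgep, the target of the hairpin, was at 20.6, 58.6 and 21.8 CPM in shCtr 1, 2 and 3 and at 4.28, 0.542 and 5.52 CPM in shOSGEP 1, 2 and 3, so every depleted library was below every control. Its Log2FC was -3.29 (SE 0.876, unadjusted edgeR p 0.00524), short of the adjusted threshold with edgeR and past it with DESeq2 (adjusted p 0.0386). Library shCtr 2 stood apart, with a TMM factor of 0.690 against 1.04 to 1.14 in the others, and a trend on GC content and transcript length described 62.4% of the variance of its deviations from the gene means. That share was 51.0% in shCtr 1, 53.8% in shOSGEP 1 and 13.5% to 17.3% in the other 3 libraries. Melanocyte markers were expressed in every library, with summed levels of 17668 to 31493 CPM in shCtr and 3697 to 18933 CPM in shOSGEP. All 8 had a lower mean in shOSGEP, none past the study threshold, with median log2 differences of -0.05, -2.92 and -0.06 for replicate numbers 1, 2 and 3, and the part of this in the values below was not tested. Of 14 immune cell markers, 9 had no count in any library, among them Ptprc, Cd3e, Itgam and Ms4a1, and their summed level was 2.21 to 4.62 CPM in shCtr and 1.95 to 3.72 CPM in shOSGEP. In bulk RNA, fewer cells of a kind and less RNA per cell cannot be told apart.

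Compared per kilobase of exonic length, Pml was the most abundant of the 7 transcripts and Trim25 the least. Pml averaged 12.01 ± 4.25 CPM per kb (SD over 6 libraries) and was above Trim56, at 4.22 ± 2.02 CPM per kb, in 6 of 6 libraries. Trim56 was above Trim30a, at 2.22 ± 1.80 CPM per kb, in 5 of 6 libraries. Trim30a and Trim21, at 1.86 ± 0.742 CPM per kb, differed in order between the groups, with Trim21 the higher in 3 of 3 shCtr libraries and Trim30a the higher in 3 of 3 shOSGEP libraries. Sp100, at 0.243 ± 0.306 CPM per kb, was below Trim21 in 6 of 6 libraries and above Trim14, at 0.102 ± 0.0691 CPM per kb, in 5 of 6. Trim25 came last at 0.0155 ± 0.0170 CPM per kb. Among tested genes with a known length, Pml stood at percentile 69.1, Trim56 at 42.2, Trim30a at 28.8, Trim21 at 25.9 and Sp100 at 4.46 for this level.

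**Figure D1:**
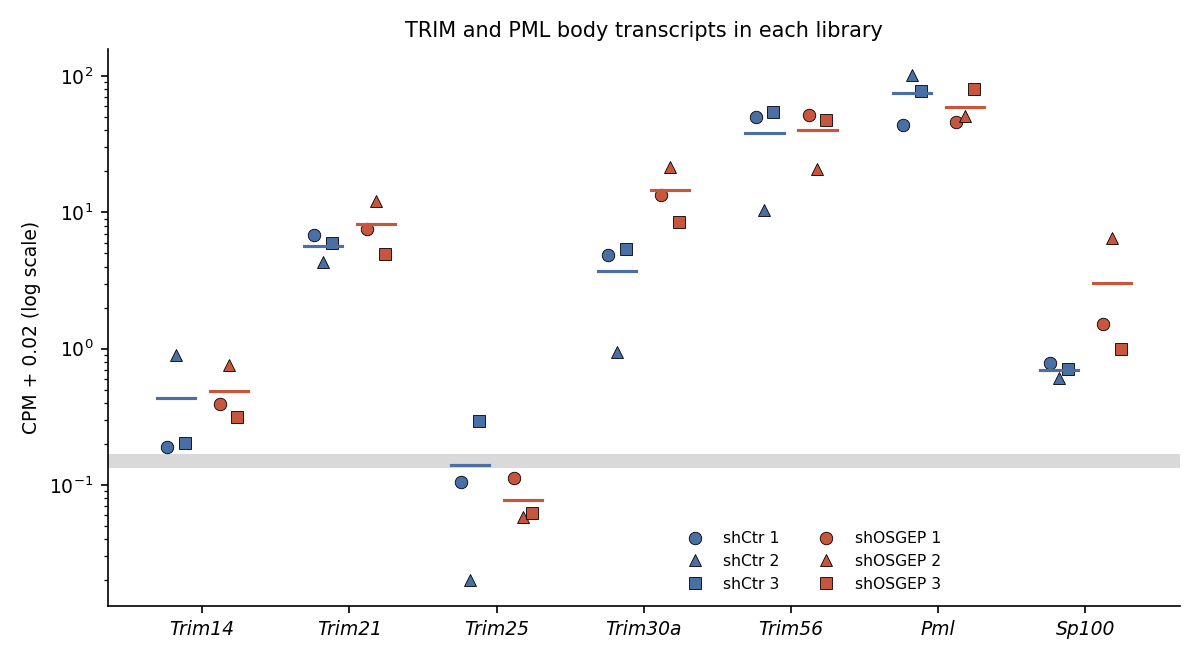
Level of each gene in each of the 6 libraries, as CPM with a small constant added, on a log axis, with shCtr in blue, shOSGEP in red, 1 symbol per replicate number and bars at the group means. The grey band marks the floor of 3 counts. Every shOSGEP library lies above every shCtr library for Trim30a and Sp100, and all Trim25 points lie at or near the floor.

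Of the 5 tested genes, 4 had a higher mean in shOSGEP and 1, Pml, a lower one, and none passed the test. Trim30a and Sp100 stood apart from the other 3 by size, at Log2FC 1.96 and 2.12. Of these, Sp100 met the filter on low counts only with shOSGEP libraries. Over all genes tested, 5998 had a higher mean in shOSGEP and 6671 a lower one. No gene among the 12669 tested passed an adjusted p under 0.05 with edgeR (0%), and 256 did so unadjusted (2.02%). With DESeq2, 14 of the 12396 genes that had an adjusted p passed (0.113%), and none of the 7 was among them, nor did any of the 7 pass with limma-voom. The edgeR adjusted p of each of the 5 was 1.00. At the threshold of the study, a Log2FC beyond 0.5 with an unadjusted p under 0.05, Trim30a and Sp100 were past it on the higher side, as were 1.59% of all genes tested, and no member was past it on the lower side, as were 0.426%. The median Log2FC of the 5 was 0.53, against -0.03 for all genes tested, and it was 0.38 without shOSGEP 2, 0.36 without shCtr 2, 0.08 without both and 0.07 with limma-voom.

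Trim30a (ENSMUSG00000030921, chromosome 7, 104409025 to 104465193, minus strand, GRCm38) encodes the mouse TRIM protein that restrains NF-κB signalling. Its level was 4.84, 0.934 and 5.40 CPM in shCtr 1, 2 and 3 and 13.4, 21.6 and 8.49 CPM in shOSGEP 1, 2 and 3. The groups did not overlap, with the lowest value in shCtr 2 and the highest in shOSGEP 2. Such complete separation with shOSGEP above was found for 3.49% of all genes tested. Its mean was 3.72 ± 2.43 CPM in shCtr and 14.5 ± 6.63 CPM in shOSGEP (SD, n = 3 each), a Log2FC of 1.96 (SE 0.721, 95% interval 0.31 to 3.61). The unadjusted edgeR p was 0.0255, rank 116 of the genes tested. The exact two-sided permutation p was 0.1, the smallest that 3 libraries against 3 can give.

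Taken by replicate number, Trim30a was higher in shOSGEP in 3 of 3 comparisons, by 1.46, 4.41 and 0.64 on the log2 scale for numbers 1, 2 and 3. All 3 comparisons were higher for 17.6% of all genes tested. The comparison of number 2 was by far the widest, and it set shOSGEP 2 against shCtr 2, the library that stood apart. Without both libraries of number 2 the Log2FC was 1.10, with limma-voom it was 1.09, and without shOSGEP 2 alone it was 1.55 with an unadjusted edgeR p of 0.0927. With the replicate number as a block the Log2FC was 2.07 with an unadjusted edgeR p of 0.0514. Trim30a was past the study threshold in 16 of 18 alternative settings and had a higher value in shOSGEP in all 18.

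Sp100 (ENSMUSG00000026222, chromosome 1, 85649988 to 85709998, plus strand) encodes the resident PML body protein, itself the product of an interferon-induced gene. Its counts were low, with 18, 12 and 15 reads in shCtr and 32, 168 and 23 in shOSGEP. Relative to depth, shCtr 2 was short of the filter on low counts, so Sp100 met that filter only with shOSGEP libraries. The filter thus favoured a higher mean in shOSGEP for this gene. These were 0.765, 0.590 and 0.692 CPM in shCtr 1, 2 and 3 and 1.49, 6.51 and 0.976 CPM in shOSGEP 1, 2 and 3. The groups did not overlap, yet shOSGEP 1 and 3 were close to the controls and shOSGEP 2 was far above both. The mean was 0.682 ± 0.0878 CPM in shCtr and 2.99 ± 3.06 CPM in shOSGEP (SD, n = 3 each), a Log2FC of 2.12 (SE 0.809, 95% interval 0.27 to 3.98). The unadjusted edgeR p was 0.0295, rank 140 of the genes tested, and the exact permutation p was again 0.1.

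The size for Sp100 rested on shOSGEP 2. Without that library the Log2FC was 0.86 with an unadjusted edgeR p of 0.203, and without both libraries of number 2 it was 0.75 with a p of 0.250. By replicate number, Sp100 was higher in shOSGEP by 0.89, 3.28 and 0.45 on the log2 scale. It was past the study threshold in 10 of 18 alternatives, and lost it also under the replicate block (Log2FC 1.62, unadjusted edgeR p 0.0703). Leaving out shCtr 1, 2 or 3 gave unadjusted edgeR p values of 0.0570, 0.0609 and 0.0793 at Log2FC of 2.21, 2.03 and 2.13, and leaving out both libraries of number 3 gave 0.0584. With limma-voom the Log2FC was 0.96 and the unadjusted p 0.0781.

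Trim21 (ENSMUSG00000030966, chromosome 7, 102557921 to 102565486, minus strand), the antibody receptor whose promoter holds the paired ISRE matches, was at 6.80, 4.33 and 5.90 CPM in shCtr 1, 2 and 3. It was at 7.54, 12.01 and 4.96 CPM in shOSGEP 1, 2 and 3. The groups overlapped, and shOSGEP 3 was lower than shCtr 1 and shCtr 3. The mean was 5.68 ± 1.25 CPM in shCtr and 8.17 ± 3.57 CPM in shOSGEP (SD, n = 3 each). The Log2FC was 0.53 (SE 0.516, 95% interval -0.66 to 1.71), with an unadjusted edgeR p of 0.338 and an exact permutation p of 0.4. By replicate number the log2 differences were 0.15, 1.46 and -0.25, and without both libraries of number 2 the Log2FC was -0.02.

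Trim56 (ENSMUSG00000043279, chromosome 5, 137105644 to 137116209, minus strand), linked to STING and RNA sensing, was at 50.3, 10.4 and 54.5 CPM in shCtr 1, 2 and 3. In shOSGEP 1, 2 and 3 it was at 51.8, 20.7 and 47.5 CPM. Both libraries of number 2 were low and the other 4 lay close together, so the low values shared a replicate number across the groups. The mean was 38.4 ± 24.3 CPM in shCtr and 40.0 ± 16.9 CPM in shOSGEP (SD, n = 3 each). The Log2FC was 0.06 (SE 0.662, 95% interval -1.46 to 1.58), with an unadjusted edgeR p of 0.931. That interval includes more than a doubling in either direction, so it does not show that the level was equal.

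Pml (ENSMUSG00000036986, chromosome 9, 58218076 to 58249786, minus strand), the scaffold of the bodies, was at 43.4, 103 and 77.5 CPM in shCtr 1, 2 and 3. It was at 46.2, 51.1 and 80.7 CPM in shOSGEP 1, 2 and 3. The groups overlapped, and the highest value was in shCtr 2. The mean was 74.5 ± 29.7 CPM in shCtr and 59.4 ± 18.7 CPM in shOSGEP (SD, n = 3 each). The Log2FC was -0.33 (SE 0.468, 95% interval -1.40 to 0.74), with an unadjusted edgeR p of 0.503. By replicate number the log2 differences were 0.09, -1.0 and 0.06, so the lower mean came from number 2, and without both its libraries the Log2FC was 0.08.

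**Figure D2:**
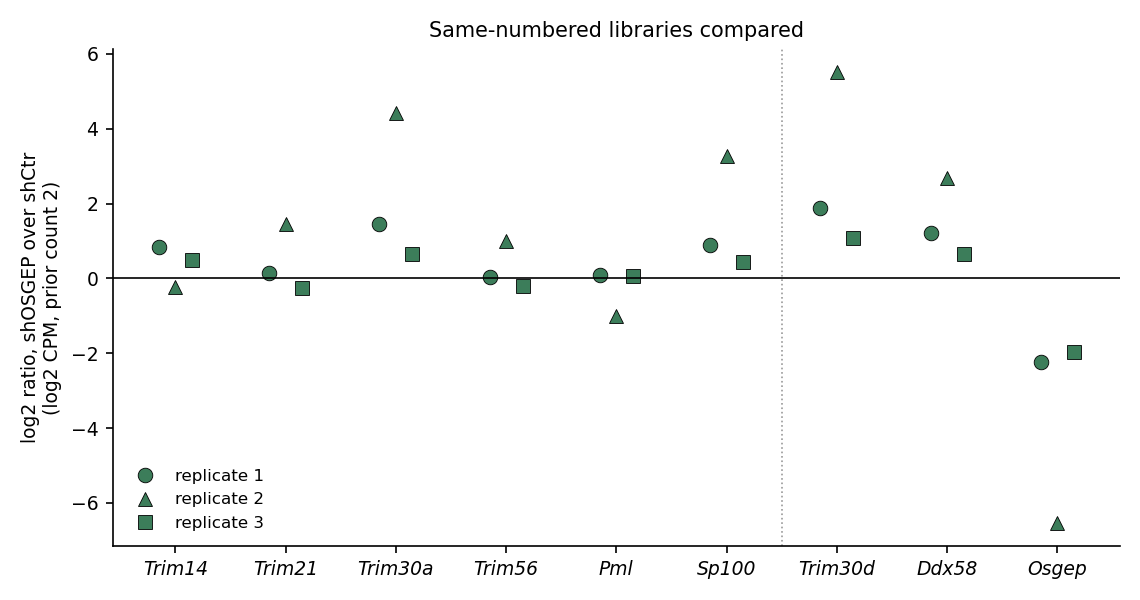
Log2 ratio of shOSGEP over shCtr for each gene and each replicate number, from log2 CPM with a prior count of 2, with 1 symbol per number and a line at 0. Trim30d, Ddx58 and Osgep stand to the right of the dotted line for comparison. The widest ratios of Trim30a, Sp100, Trim21 and Pml are those of number 2, at 4.41, 3.28, 1.46 and -1.0, and Trim30a and Sp100 are above 0 for all 3 numbers.

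The transcript of TRIM25, the ubiquitin ligase of RIG-I, was hardly represented in these libraries, and the protein was not measured in them. Trim25 (ENSMUSG00000000275, chromosome 11, 88999376 to 89020293, plus strand) had 2, 0 and 6 counts in shCtr 1, 2 and 3 and 2, 1 and 1 counts in shOSGEP 1, 2 and 3. All but 1 of the 6 libraries were under the floor of 3 counts, so no fold is given and no difference was detectable at this depth. Ddx58, which encodes RIG-I itself, was at 12.3, 12.3 and 15.3 CPM in shCtr 1, 2 and 3 and at 28.8, 79.0 and 23.9 CPM in shOSGEP 1, 2 and 3. Every shOSGEP library was above every control for Ddx58, with a Log2FC of 1.72 (SE 0.554, unadjusted edgeR p 0.0139, not past the adjusted threshold). Without shOSGEP 2 its Log2FC was 1.00 (unadjusted edgeR p 0.0457). Rnf135, which encodes another RIG-I ubiquitin ligase and was chosen after its values were seen, was at 11.6 to 30.8 CPM in shCtr and 11.8 to 29.1 CPM in shOSGEP.

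Trim14 (ENSMUSG00000039853, chromosome 4, 46493781 to 46536141, minus strand), the partner of MAVS, was also low, with 4, 18 and 4 counts in shCtr and 8, 19 and 7 counts in shOSGEP. The groups overlapped, with the 2 libraries of number 2 the highest of their groups. The mean was 0.413 ± 0.409 CPM in shCtr and 0.468 ± 0.235 CPM in shOSGEP (SD, n = 3 each), and the exact permutation p was 0.6. With no filter on low counts the Log2FC was 0.21 (SE 0.959, unadjusted edgeR p 0.832). Its exons overlap Nans, a gene on the opposite strand, over 1356 bases or 31.3% of their length, and the library kit was not stated to keep the strand. If the strand was not kept, reads of the overlapping stretch cannot be told apart. Nans was at 302 CPM in shCtr 2 and 64.5 to 137 CPM in the other 5 libraries, and its part in the Trim14 values was not tested.

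The genes with the 2 closest profiles across the 6 libraries were named for each member, by the root mean square difference of centred log2 CPM among tested genes with a mean of at least 50 counts. For Trim30a these were Thbs1 (0.153) and Gbp3 (0.181), and for Sp100 they were Loxl4 (0.161) and Sh3bgr (0.173). For Trim21 they were Sdhaf2 (0.0730) and Prxl2a (0.0736), for Trim56 Trip12 (0.0441) and Ncor1 (0.0849), and for Pml Sec31a (0.0422) and Mark2 (0.0526). Trim14 was closest to Morn4 (0.151) and Bscl2 (0.178). Trim25 was closest to Klf11 (0.300) and Nanos1 (0.315), with counts too low for its profile to be read.

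Because shCtr 1, shCtr 2 and shOSGEP 1 followed GC content and length most, each gene was set beside the trend fitted over all genes. In shCtr 2, Trim30a was 2.65 below its own mean on the log2 scale where the trend for a gene of its GC content and length was 1.76 below, and Trim56 was 1.69 below where the trend was 0.47 below. Sp100, at 0.95 below, and Trim21, at 0.59 below, were close to their trends of 0.88 and 0.49 below. Pml was 0.69 above its mean, with a trend of 0.45 above. In shOSGEP 2 the high values of Trim30a (1.76 above its mean), Sp100 (2.34 above) and Trim21 (0.87 above) stood against trends of -0.14, 0.16 and 0.17. With the trend as an offset, Trim30a still had no overlap between groups, while the groups of Sp100 overlapped. Whether other differences between the libraries of number 2 moved these values was not tested.

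**Figure D3:**
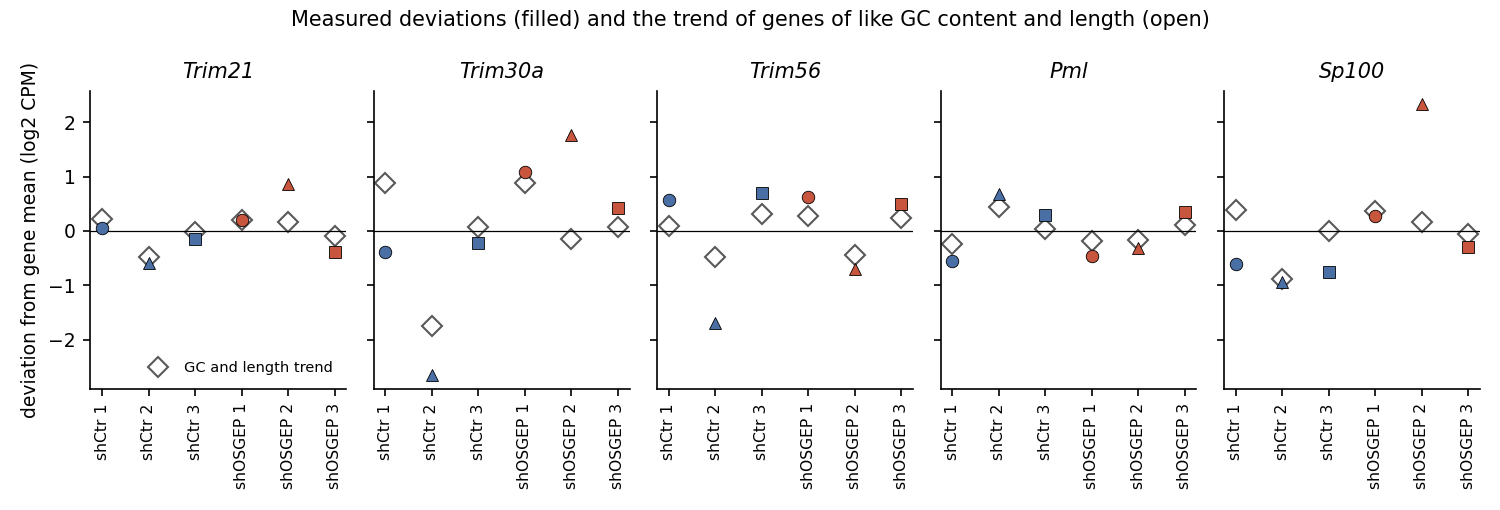
Deviation of each tested gene from its own mean, in log2 CPM, in each of the 6 libraries, as filled symbols (shCtr in blue, shOSGEP in red), with the deviation of the GC and length trend as open diamonds. In shCtr 2 the deviation of Trim30a is -2.65 with a trend of -1.76, and in shOSGEP 2 it is 1.76 with a trend of -0.14.

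Trim30a lies in a cluster of related TRIM genes on chromosome 7, and of these Trim30d and Trim12c also had higher means in shOSGEP. Of its 31-base sequence words, 11.9% occur in other genes and 8.53% occur in Trim30d, so some reads may be divided between the 2. Trim30d had 13, 0 and 15 counts in shCtr and 49, 102 and 37 counts in shOSGEP, with a Log2FC of 2.62 (SE 1.04, unadjusted edgeR p 0.0341). Trim12c, of the same cluster and the same interferon-induced group, had 27, 0 and 24 counts in shCtr and 67, 134 and 39 in shOSGEP, with a Log2FC of 2.13 (SE 1.11, unadjusted edgeR p 0.0900). For both, shCtr 2 had no count and every shOSGEP library was above every control, and neither passed the adjusted threshold. Both met the filter on low counts only with shOSGEP libraries. Trim30d was short of the study threshold with the replicate block (unadjusted edgeR p 0.0559), without shCtr 1 (0.0502), without shOSGEP 2 (0.119) and without both libraries of number 3 (0.0545). Trim30b had no count in any library. For Sp100, 9.20% of its words occur in other genes.

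Of 11 other TRIM genes linked to interferon, 3 were tested, all 3 had a higher mean in shOSGEP and 1, Trim30d, was past the study threshold. The filter asked for enough counts in at least 3 libraries, which Trim30d and Trim12c met only with shOSGEP libraries. It thus favoured a higher mean in shOSGEP for these genes. The median Log2FC of the 3 was 2.13, and 1.08 without both libraries of number 2. It was 0.40 where at least 10 counts were required in every library, which of the 3 left only Trim26. Among all 64 TRIM genes outside the 7, 34 were tested and divided evenly, with 17 higher, 17 lower and a median Log2FC of 0.00. Every shOSGEP library was above every control for 3 of the 34, Trim30d, Trim12c and Trim46, and below for 1, Trim63, a muscle ubiquitin ligase. Of all 12669 genes tested, 442 were above in this way and 364 below. Trim46, a protein of the axon initial segment, had a Log2FC of 1.14 with an unadjusted edgeR p of 0.0775, and 0.86 (p 0.176) without shOSGEP 2. It was 1.17 with the replicate block (unadjusted edgeR p 0.0222) and 1.27 with limma-voom (unadjusted p 0.00356), neither past the adjusted threshold. On the lower side the smallest p values belonged to Trim63 (Log2FC -0.65, unadjusted edgeR p 0.160), Trim28, a corepressor of retroelements (-0.79, p 0.194, with a range of -1.31 to -0.36 when 1 library was left out), and Trim65 (-0.61, p 0.216). Without both libraries of number 2 the Log2FC was -0.24 for Trim63, -0.09 for Trim28 and -0.26 for Trim65.

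**Figure D4:**
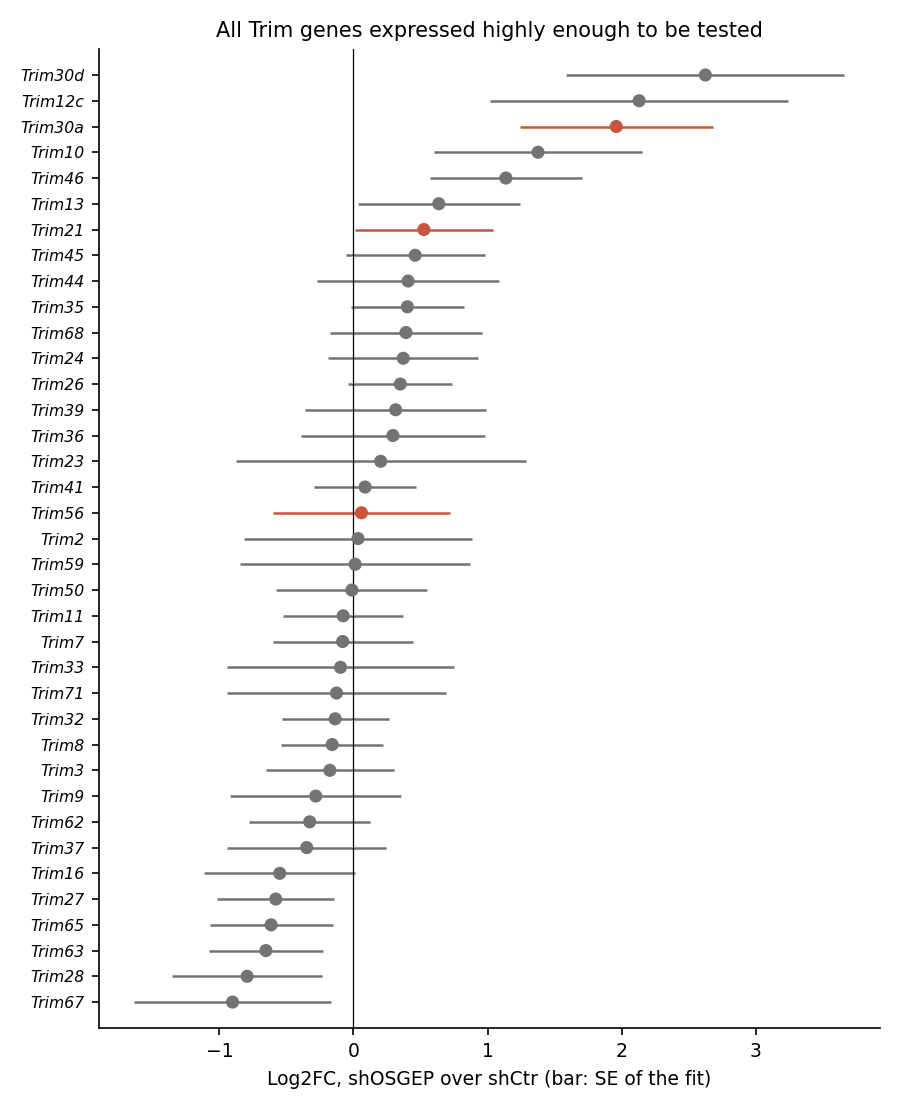
Log2FC of every tested TRIM gene, shOSGEP over shCtr, in rank order, with bars of 1 SE. Trim21, Trim30a and Trim56 are in red and the other 34 genes in grey. Trim30d, Trim12c and Trim30a have the highest values, at 2.62, 2.13 and 1.96, and the other genes lie on both sides of 0.

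The other PML body genes had values on both sides of 0. Of 36 genes for PML body components and the SUMO pathway, 35 were tested, 16 higher and 19 lower, with a median Log2FC of -0.06. Isg20, an interferon-induced exonuclease found in PML bodies, was the only one past the study threshold, at a Log2FC of 3.03 (SE 1.19, unadjusted edgeR p 0.0337). Its level was 1.36, 4.87 and 1.75 CPM in shCtr 1, 2 and 3 and 3.77, 58.4 and 3.22 CPM in shOSGEP 1, 2 and 3, so the groups overlapped and shOSGEP 2 stood far above the rest. Without shOSGEP 2 its Log2FC was 0.42 (unadjusted edgeR p 0.565), and without shCtr 1 or shCtr 3 its p was 0.0744 or 0.0901. Sp140, a relative of Sp100, had a Log2FC of 2.18 with an unadjusted edgeR p of 0.0905, and 0.29 without shOSGEP 2.

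Among 24 signalling partners of the TRIM proteins, 21 were tested, 13 higher and 8 lower, with a median Log2FC of 0.06. Of these, 2 were past the study threshold, Ddx58 and Dhx58, which encodes the RIG-I relative LGP2. Dhx58 was at 2.85, 3.44 and 2.31 CPM in shCtr 1, 2 and 3 and at 5.58, 39.1 and 6.32 CPM in shOSGEP 1, 2 and 3, a Log2FC of 2.57 (unadjusted edgeR p 0.0140), and 1.07 (p 0.0618) without shOSGEP 2. Every shOSGEP library was above every control for 4 of the 21, Ddx58, Ifih1, Dhx58 and Ikbkg, as it was for 3.49% of all genes tested.

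Of 18 genes for interferons, their receptors and their transcription factors, 13 were tested, 11 higher and 2 lower, with a median Log2FC of 0.34 and none past the study threshold. That median was 0.16 without shCtr 2, 0.22 without shOSGEP 2, 0.08 without both and 0.05 with limma-voom. Irf7, among the 11 higher, met the filter on low counts only with shOSGEP libraries. Ifnb1, Ifna2, Ifna4 and Ifng had no count in any library, which at this depth allows up to the floor of 3 counts in each. Irf9, the DNA-binding subunit of ISGF3, had a Log2FC of 1.54 (unadjusted edgeR p 0.0951), which was 0.40 (p 0.582) without shOSGEP 2 and 2.32 (p 0.0199) without shCtr 2. It was 1.39 with the replicate block (unadjusted edgeR p 0.00675) and 1.69 with limma-voom (unadjusted p 0.00447). Neither value passed the adjusted threshold.

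Of 24 other interferon-stimulated genes used as a reference, 22 were tested, 21 higher and 1 lower, beside 5998 higher and 6671 lower of all genes tested. Of the 22, 7 were past the study threshold on the higher side, as were 1.59% of all genes tested. The median Log2FC of the list was 1.46, and 0.59 without shOSGEP 2. The smallest p values belonged to Gbp2, a guanylate-binding protein (Log2FC 2.06, unadjusted edgeR p 0.00680), and Ifit1, which binds foreign RNA ends (Log2FC 1.88, unadjusted edgeR p 0.0175, and 0.0736 without shOSGEP 2). By replicate number the list's medians were 0.83, 2.55 and 0.75, so number 2 was the widest here as it was for Trim30a, Sp100 and Trim21. Trim30a and Sp100 were above this median, and Trim21, Trim56 and Pml were below it.

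**Figure D5:**
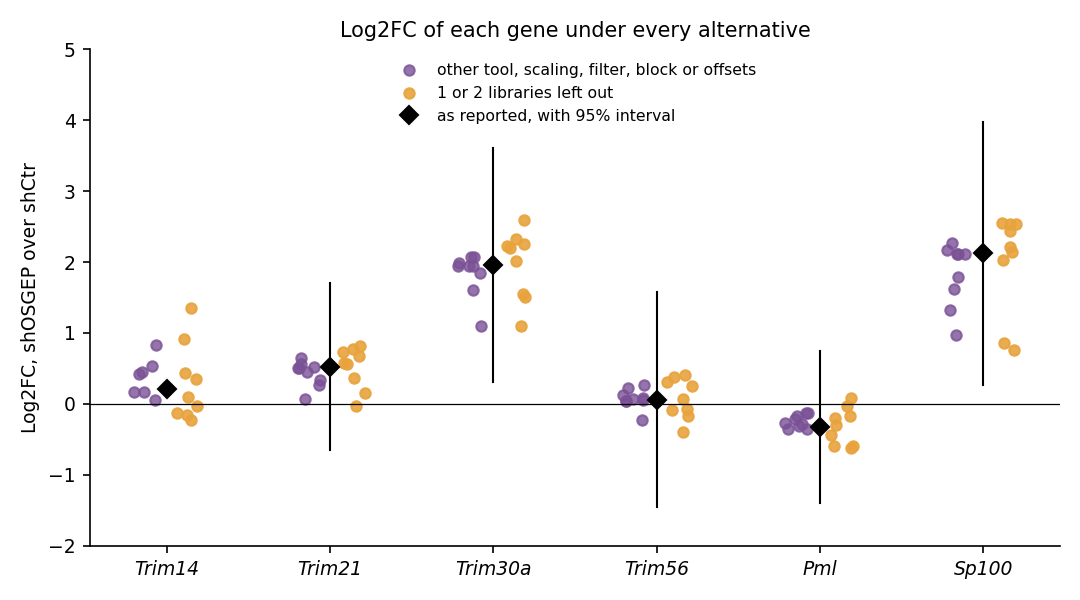
Log2FC of the 6 genes that could be fitted, as reported (diamonds, with 95% intervals for the 5 tested) and under the alternatives (purple for another tool, scaling, filter, block or offsets, orange for 1 or 2 libraries left out). Trim30a stays between 1.09 and 2.6 and Sp100 between 0.75 and 2.55, while Trim14, Trim21, Trim56 and Pml cross 0.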

How the data were processed

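PolyA RNA of 6 libraries was sequenced in paired reads with an Illumina TruSeq kit. The authors trimmed reads with TrimGalore, aligned them to GRCm38 (STAR 2.6.1d) and quantified genes with Salmon 1.4.0 in nf-core/rnaseq, per the labels and the methods. The authors deposited estimated counts, rounded to whole numbers and not normalized, for each Ensembl gene. The annotation release is not given in the sources used here, and GENCODE M21 held 99.53% of the identifiers. Salmon divides reads shared by near copies, so such values are uncertain.

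Genes were kept by filterByExpr (minimum count 10, minimum total 15), scaled by TMM and tested in R 4.3.3 with the two-sided quasi-likelihood F-test of edgeR 4.0.16, without a block and with Benjamini-Hochberg adjustment over 12669 genes. DESeq2 1.42.0 and limma-voom (limma 3.58.1) were alternatives, beside other scalings and filters, offsets on GC content and length (splines of 5 degrees of freedom), the replicate block, and leaving libraries out. Scripts were tested on simulated data. For single genes, mean log2 CPM (prior count 2) was also compared by exact permutation. Depth was 18915587 to 29487384 counts, and the floor of 3 counts covers counting error only.

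As a check of pairing, the deviations of same-numbered libraries from their group means were correlated, giving 0.811, 0.557 and 0.196. All were above 0.1, but so were shCtr 3 with shOSGEP 1 (0.491) and shCtr 2 with shOSGEP 3 (0.138). The remaining mismatched correlations were negative, from -0.784 to -0.315. Each shOSGEP library was thus most like the control of its number, while shCtr 3 was most like shOSGEP 1. The names of same-numbered libraries also share an ending across the groups. What same-numbered libraries had in common is not stated, so these values alone cannot show that the numbers pair the infections. The replicate block was kept as an alternative, and blocked values are given where they end or make a call at the study threshold. The genes and lists were chosen with earlier results of these data known. Named by rule were the 7 members, Osgep, Ddx58, the 2 genes with the smallest p per list, the 3 TRIM genes per direction, the 2 closest profiles per member, and near copies or overlapping genes. A gene that this rule named is not reported here.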

Additional observations from a re-analysis of the deposited data

How the results depend on the processing

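For the 7 genes and their counts, 172 alternative values were computed over 18 settings. No member passed the adjusted threshold in any of them, so the threshold of the study is given, which Trim30a passed in 16 settings and Sp100 in 10. Trim30a kept a higher value in shOSGEP throughout (1.09 to 2.6), as did Sp100 (0.75 to 2.55). With limma-voom, Trim56 was -0.22. When libraries were left out, Trim14 ran from -0.23 to 1.36, Trim21 from -0.024 to 0.81, Trim56 from -0.39 to 0.40 and Pml from -0.62 to 0.075. With the replicate block, which pairs libraries by number, 0 members were past the study threshold. Among all 12669 genes tested, 294 passed it on the higher side and 79 on the lower. Without the block these were 202 and 54. With limma-voom 1 member was past it, beside 424 and 136 of all genes. When libraries were left out the count ran from 0 to 2. It was 0 without shOSGEP 2, beside 54 and 13 of 12972 genes. It was 2 without shOSGEP 3, beside 274 and 116 of 13105. With GC and length offsets, 1 member had no overlap between groups, and the share over all genes was not computed there. The cause of these shifts was not tested. Of 375 further values, 14 reversed and 1 (Osgep with DESeq2) came past the adjusted threshold. Sp140 was -0.0095 with limma-voom and ran from -0.20 to 2.97 with libraries left out. The median of the PML body list was 0.039 with upper-quartile scaling, 0.017 with the block and -0.28 to 0.098 with libraries left out, and that of the signalling partners was -0.0021 to 0.30 with libraries left out. The median of the other TRIM genes was -0.021 with DESeq2 and with RLE scaling, -0.025 with at least 10 counts required in every library, and -0.14 to 0.24 with libraries left out. Depth limits Trim25, which stayed at or near the floor, and Trim14, with 4 to 19 counts in a library.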

Other observations

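Of the 11 other interferon-linked TRIM genes, 8 had too few counts to be tested. Trim34a had 0, 1 and 1 counts in shCtr 1, 2 and 3 and 15, 108 and 10 counts in shOSGEP 1, 2 and 3. Trim12a had 2, 1 and 4 counts in shCtr 1, 2 and 3 and 16, 86 and 5 counts in shOSGEP 1, 2 and 3. Trim38 had 2, 1 and 4 counts in shCtr 1, 2 and 3 and 4, 18 and 3 counts in shOSGEP 1, 2 and 3. In all 3 genes shOSGEP 2 held the highest count. Trim5 had 0 to 6 counts in a library, Trim30c and Trim34b had 0 or 1, and Trim6 and Trim30b had 0 in all 6. Trim26, an interferon-linked TRIM gene and one of the 3 tested, was at 49.2, 66.7 and 50.8 CPM in shCtr 1, 2 and 3. It was at 63.4, 86.5 and 62.4 CPM in shOSGEP 1, 2 and 3, and the groups overlapped. By replicate number it was higher in 3 of 3 comparisons, by 0.37, 0.37 and 0.30 on the log2 scale, as were 17.6% of all genes tested. Its Log2FC was 0.35 (95% interval -0.54 to 1.24, unadjusted edgeR p 0.392).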
